A study of Mus musculus with 12 samples.

Results

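The expression of 10 genes that signal in the developing hair follicle was followed in embryonic mouse back skin that lacked either the type I or the type II keratins, the protein families that pair to build the intermediate filaments of epithelial cells. The genes were Shh, Ptch1, Gli1, Edar, Lhx2, Lef1, Wnt10b, Bmp4, Sox9 and Msx2. They were taken by symbol, with every probe annotated to them, from 16593 named genes on an Illumina bead array. The 12 arrays fell into 4 groups of 3: Type I keratin KO, Wild type I, Type II keratin KO and Wild type II. All came from back skin of C57BL/6 embryos at E18.5, shortly before birth, and each knockout was set against the wild type of its own series. The labels name the knockouts only by keratin type, so the alleles are not described here, and they do not say whether each array is a separate embryo. The p-values are therefore set by how far these samples vary, and that variation may be technical.

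A hair follicle starts when Wnt signals thicken a patch of embryonic epidermis into a placode. The ectodysplasin receptor Edar then stabilises the placode, and Shh made by its cells drives growth of the follicle and of the dermal condensate below it, where the receptor Ptch1 and the transcription factor Gli1 take part in the hedgehog response and are raised by it. Bmp4 is a dermal signal that restrains follicle fate between placodes, while Lhx2, Sox9, Lef1 and Msx2 are transcription factors of the growing follicle. In mouse back skin the follicles form in successive waves before birth, so follicles of several stages lie side by side at this age.

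The signal of a probe is given below as its normalized signal on a log2 scale. A probe was detected on an array when the deposited detection p-value was under 0.05, and it entered the tests when it was detected on at least 3 arrays. Of the 13 probes of the 10 genes 10 entered, which left 9 genes with a test. Gli1 was the exception. The words rose, fell and called are used where the adjusted p, from 1 limma model of all 12 arrays with Benjamini-Hochberg adjustment over 11163 genes, was under 0.05. Changes are differences of log2 signal ± standard error with 3 arrays a group, and since each probe has its own brightness, levels are compared between groups and never between genes.

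The arrays detected 13272 to 13693 of 25697 probes, and replicate arrays had correlations of 0.962 to 0.991. The deleted keratins followed the labels. Krt14 averaged 4.43 in Type I keratin KO, where none of the 3 arrays detected it, against 14.19 in Wild type I, and Krt5 averaged 4.54 in Type II keratin KO, again with none of the 3 arrays detecting it, against 10.65 in Wild type II. These are falls of at least 583-fold for Krt14 and at least 50.4-fold for Krt5.

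The sequence just before the start of a gene is where its promoter is read, and 3 such windows are shown because Edar, Lhx2 and Wnt10b had the largest falls in the type II knockout among the members with an entry. They come from RefSeq on build GRCm38.p6, run from 250 bases before to 50 bases after the annotated start, and are written 5′ to 3′ on the gene's own strand. Edar lies at chr10:58675647-58675946 on the minus strand, Lhx2 at chr2:38339031-38339330 on the plus strand and Wnt10b at chr15:98778101-98778400 on the minus strand. Lhx2 has another annotated start, with a window at chr2:38351058-38351357, which is not shown. Capitals mark the only match found to CTTTGAT or CTTTGAA, letters bound by LEF and TCF factors, searched on both strands.
Edar: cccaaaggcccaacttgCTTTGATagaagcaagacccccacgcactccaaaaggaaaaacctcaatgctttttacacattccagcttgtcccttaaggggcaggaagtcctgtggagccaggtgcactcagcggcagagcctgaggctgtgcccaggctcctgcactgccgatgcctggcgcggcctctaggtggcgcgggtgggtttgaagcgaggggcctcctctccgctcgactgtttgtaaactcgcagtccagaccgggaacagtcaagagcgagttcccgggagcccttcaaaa
Lhx2: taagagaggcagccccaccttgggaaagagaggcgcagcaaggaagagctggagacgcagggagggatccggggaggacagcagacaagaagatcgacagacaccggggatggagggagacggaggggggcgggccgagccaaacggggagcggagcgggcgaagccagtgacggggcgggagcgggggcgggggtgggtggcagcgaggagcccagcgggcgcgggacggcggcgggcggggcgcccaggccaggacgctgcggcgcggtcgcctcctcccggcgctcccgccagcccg
Wnt10b: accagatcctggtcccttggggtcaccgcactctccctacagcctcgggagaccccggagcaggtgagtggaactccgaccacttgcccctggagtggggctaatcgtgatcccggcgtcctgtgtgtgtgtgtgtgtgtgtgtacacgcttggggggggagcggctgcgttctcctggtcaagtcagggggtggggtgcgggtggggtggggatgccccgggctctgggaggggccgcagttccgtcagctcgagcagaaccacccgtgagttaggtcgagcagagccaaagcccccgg

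The Edar window held 58.7% G and C with 14 CpG dinucleotides, and its LEF/TCF match began 233 bases before the start. The Lhx2 window shown held 74.7% G and C with 34 CpG dinucleotides, the other Lhx2 window 69.3% with 29, and the Wnt10b window 66.3% with 18. Of the 10 genes 7 had an entry, with 11 windows in all, and no window other than that of Edar held the LEF/TCF letters. Over all 32851 windows of the same length 8.65% held them. The GLI letters GACCACCCA, searched on both strands, were in none of the 11 windows even with 1 mismatch, a match that 6.74% of all windows held. Shh, Gli1 and Sox9 had no entry and are not shown.

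**Figure D1:**
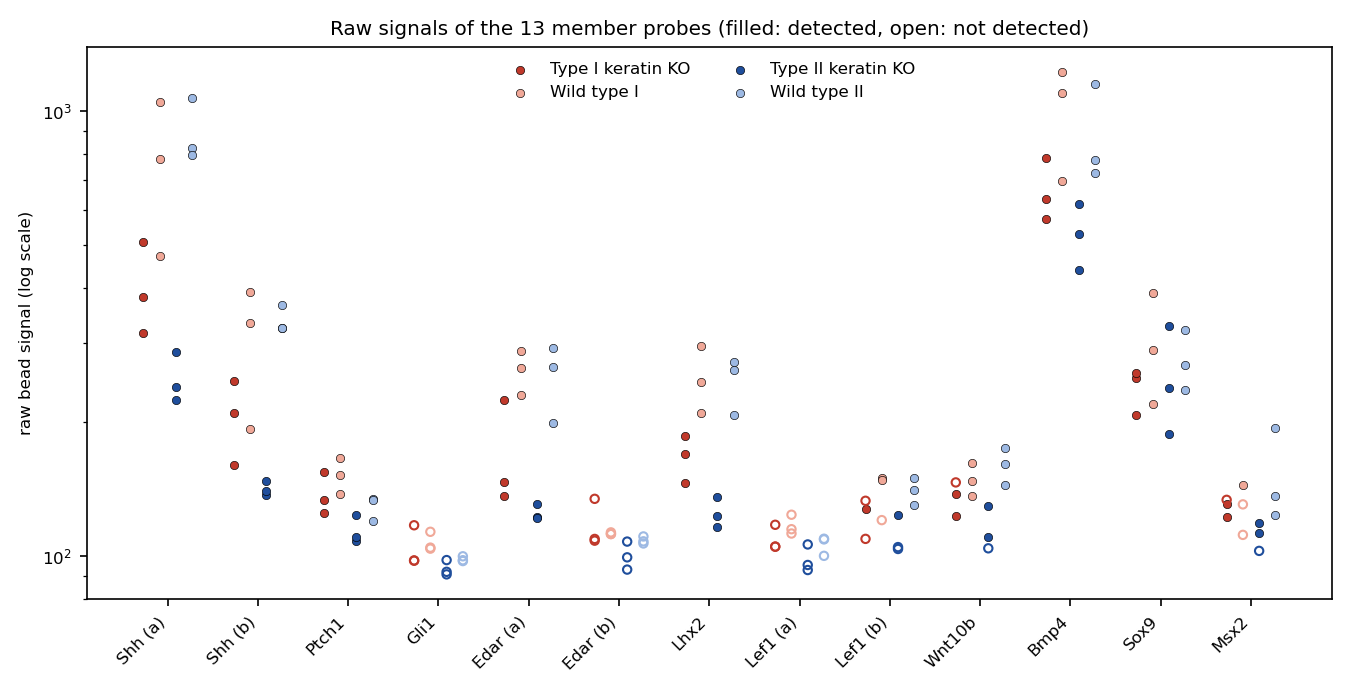
Raw bead signal on a log scale of the 13 probes of the 10 genes, with 1 point per array; filled points were detected and open points were not, and (a) and (b) separate the probes of 1 gene. The first Shh probe spans 223 to 1072 and the Bmp4 probe 439 to 1224, all detected, while Gli1, the second Edar probe and the first Lef1 probe were not detected on any array.

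In the type I knockout 6 of the 9 tested genes fell and 0 rose: Shh, Edar, Lhx2, Bmp4, Lef1 and Ptch1. Over all 11163 genes 15.6% fell and 12.2% rose, 27.8% called in all. That balance rested on single arrays: 1013 genes fell and 1095 rose without Type I keratin KO replicate 1, 1073 and 1115 without Type I keratin KO replicate 2, and 830 and 953 without both arrays whose titles carry the number 2602, beside 1746 and 1359 with all arrays. In the type II knockout 6 fell as well, with Wnt10b in place of Ptch1, against 21.8% that fell and 15.6% that rose among all genes, 37.5% called in all. With median scaling of the arrays in place of quantile normalization the type II split of all genes was 2828 fallen and 1237 risen, beside 2437 and 1746. Shh, Edar, Lhx2, Lef1 and Bmp4 fell in both knockouts, 5 of 9 genes, where 1141 of 11163 genes, or 10.2%, did so. The median change of the 9 was -0.48 in the type I and -0.81 in the type II knockout, beside -0.11 and -0.08 over all genes. All 3 knockout arrays lay below all 3 wild-type arrays for 6 genes in the type I series and 7 in the type II series, where 28.5% and 29.3% of all genes did, with 18.4% and 19.9% of all genes above; no member lay above. The type I count of falls was 3 without Wild type I replicate 1 and 3 without Type I keratin KO replicate 3. Since the members and the comparisons were chosen with earlier results known, the counts describe these genes and are not a test of the list. Skin was measured whole, so fewer cells of a type and less RNA per cell cannot be told apart.

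**Figure D2:**
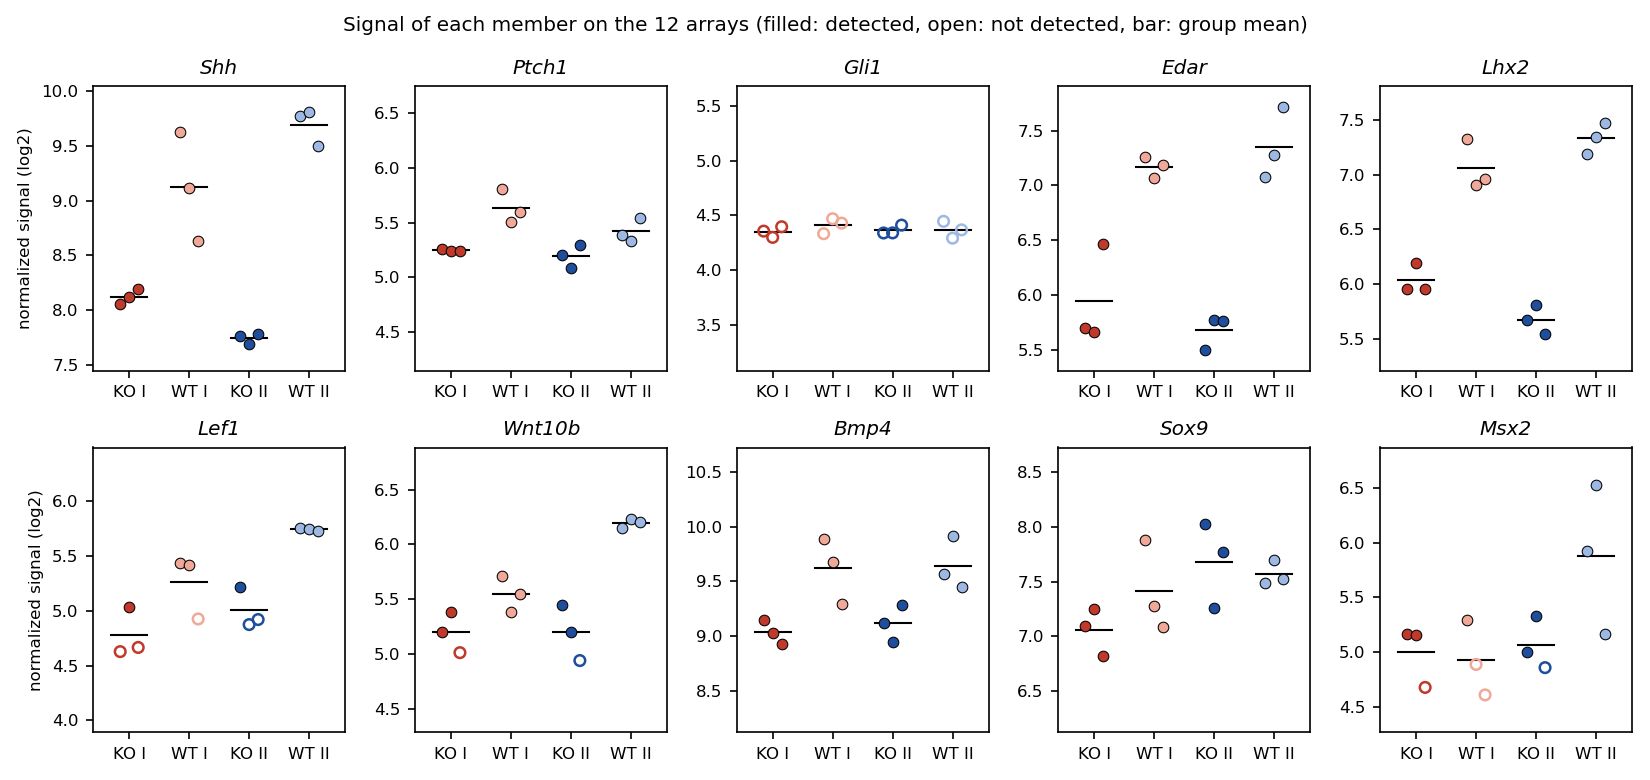
Normalized log2 signal of each of the 10 genes on the 12 arrays, in the order Type I keratin KO (KO I), Wild type I (WT I), Type II keratin KO (KO II) and Wild type II (WT II); bars are group means, open points were not detected, and every panel spans the same log2 range. For Shh, Edar and Lhx2 all knockout points lie below all wild-type points, while Gli1 lies between 4.29 and 4.47 on every array.

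Shh, the secreted hedgehog ligand of the placode and the follicle matrix, had 8.05, 8.13 and 8.20 in Type I keratin KO, against 9.63, 9.12 and 8.63 in Wild type I. In the type II series it had 7.76, 7.69 and 7.78 in Type II keratin KO, against 9.78, 9.80 and 9.50 in Wild type II. Every knockout array lay below every wild-type array, and the Wild type I arrays were spread more widely (SD 0.50) than those of any other group. Shh fell by 1.00 ± 0.20 in Type I keratin KO skin (adjusted p = 0.00399), a 2.00-fold difference, and fell by 1.95 ± 0.20 in the type II knockout (adjusted p = 3.05e-05), a 3.86-fold difference. Its second probe, fitted on its own, also fell, by 0.78 ± 0.24 (adjusted p = 0.0342) and fell by 1.81 ± 0.24 (adjusted p = 0.000195), although 1 of its Type I keratin KO arrays, at 6.81, overlapped the lowest Wild type I array at 6.75.

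The titles open with a number, which the labels do not explain, and 2 arrays of each group of the type I series carry 2705 and the third carries 2602. Within 2705 Shh differed by -1.28 between knockout and wild type, and within 2602 by -0.44. Within the numbers 2794, 2818 and 2819 of the type II series it differed by -2.01, -2.12 and -1.72. Edar split in the same way in the type I series, with -1.48 within 2705 and -0.72 within 2602, whereas Lhx2 differed by -1.04 and -1.01. All 5 within-number differences were below 0 for each of Shh, Edar and Lhx2. Without both 2602 arrays, a setting chosen after seeing the data, the type I falls were 1.28 for Shh, 1.48 for Edar and 1.04 for Lhx2, with adjusted p of 0.00213, 0.00182 and 0.00609. In that setting 5 of the 9 genes fell in the type I knockout, Ptch1 being lost (adjusted p = 0.0929).

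The differences within title numbers were also below 0 in all 5 numbers for Ptch1 (-0.41 to -0.18), Lef1 (-0.87 to -0.26), Wnt10b (-1.26 to -0.26) and Bmp4 (-0.96 to -0.17). They were of mixed sign for Msx2 (-1.19 to 0.07) and Sox9 (-0.44 to 0.54).

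Ptch1 is the hedgehog receptor that keeps the pathway silent until a ligand binds, and its own transcription is raised by the pathway. It had 5.26, 5.24 and 5.24 in Type I keratin KO, against 5.81, 5.50 and 5.60 in Wild type I. In the type II series it had 5.21, 5.08 and 5.30 in Type II keratin KO, against 5.38, 5.33 and 5.54 in Wild type II. The groups did not overlap in either series, but the probe was dim, with raw signals of 108 to 166 on the 12 arrays, all detected. Ptch1 fell by 0.39 ± 0.12 in Type I keratin KO skin (adjusted p = 0.0311), while the difference of -0.22 ± 0.12 in the type II knockout did not pass (adjusted p = 0.165, 95% interval -0.49 to 0.04). The type I call was lost under 9 of 25 alternatives. Among them were the omission of Wild type I replicate 1 or any 1 of the 3 Type I keratin KO arrays, with adjusted p of 0.106, 0.0762, 0.0810 and 0.0706.

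Gli1, the transcription factor most often read as the output of hedgehog signalling, was not detected on any of the 12 arrays. Its raw signals ran from 90.7 to 117 and its detection p-values from 0.411 to 0.985. Normalized signals ran from 4.29 to 4.47, so that no level and no change can be given for it.

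Of 17 further hedgehog genes listed, 8 entered the test. In the type I knockout 1 fell and none rose, and in the type II knockout 4 fell and 1 rose, with medians of -0.33 and -0.40. Beside this and the lists below, 15.6% of all genes fell and 12.2% rose in the type I knockout, with a median of -0.11. In the type II knockout 21.8% of all genes fell and 15.6% rose, with a median of -0.08. Disp1, the transporter that releases hedgehog ligands from the cells that make them, fell by 0.57 ± 0.15 (adjusted p = 0.0159) and by 1.10 ± 0.15 (adjusted p = 0.00024). The type I call of Disp1 was lost without replicate 3 of either group (adjusted p = 0.0508 without the Wild type I array and 0.0537 without the Type I keratin KO array). In the type II knockout Hhip, a hedgehog-binding decoy that is itself a pathway target, changed by -0.83 ± 0.23 (adjusted p = 0.0152), and by -0.64 ± 0.23 without passing in Type I keratin KO skin (adjusted p = 0.0594).

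The ligand Dhh and the transducer Smo fell in the type II knockout by 0.65 ± 0.20 (adjusted p = 0.025) and 0.53 ± 0.18 (adjusted p = 0.034). Both were lost with single arrays left out. That of Dhh was lost without Wild type II replicate 2 or 3 or Type II keratin KO replicate 2, with adjusted p of 0.0760, 0.0678 and 0.0719. That of Smo was lost without Wild type II replicate 1 or 2 or Type II keratin KO replicate 2, with adjusted p of 0.0623, 0.145 and 0.121, and the other 2 of its 3 probes did not pass (-0.10 and -0.38). That of Hhip was lost without Wild type II replicate 2 or Type II keratin KO replicate 3 (0.0630 and 0.0517). Sufu, which holds GLI factors inactive, rose at least 1.21-fold in the type II knockout (adjusted p = 0.00719), averaging 5.24 in Type II keratin KO and 4.63 in Wild type II, where no array detected it. No Wild type I array detected Sufu either. It entered the test only through knockout arrays, so its adjusted p is no separate support for a rise. The co-receptor Boc differed by 0.03 ± 0.14 and 0.12 ± 0.14 and was not called (adjusted p = 0.911 and 0.539).

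Edar is the receptor through which the placode reads ectodysplasin, and its loss in mice leaves several hair types unformed. It had 5.70, 5.66 and 6.47 in Type I keratin KO, against 7.26, 7.07 and 7.18 in Wild type I. In the type II series it had 5.50, 5.77 and 5.77 in Type II keratin KO, against 7.08, 7.27 and 7.71 in Wild type II. The knockout arrays lay below the wild-type arrays in both series, with replicate 3 of Type I keratin KO, a 2602 array, the highest of the knockouts. Edar fell by 1.23 ± 0.22 (adjusted p = 0.00194), a 2.34-fold difference, and by 1.67 ± 0.22 (adjusted p = 0.000158), a 3.19-fold difference. Its second probe was not detected on any array and adds nothing to this.

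The other genes of the ectodysplasin and NF-kappaB route did not share one direction. Of 11 tested, 3 rose and 2 fell in the type I knockout, and 3 rose and 1 fell in the type II knockout, with medians of 0.05 and 0.08. Nfkbia, an inhibitor and target of NF-kappaB, rose by 0.90 ± 0.19 (adjusted p = 0.0049) and by 2.10 ± 0.19 (adjusted p = 1.08e-05). Relb, an NF-kappaB subunit, rose by 1.53 ± 0.19 in the type II knockout (adjusted p = 0.000125) and differed by 0.47 ± 0.19 in Type I keratin KO skin (adjusted p = 0.0874).

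Eda2r, the receptor of the other ectodysplasin isoform, fell by 1.02 ± 0.13 in Type I keratin KO skin (adjusted p = 0.000203), with a difference of 0.17 ± 0.13 in the type II knockout (adjusted p = 0.352). Tnfrsf19, a related receptor of the follicle, fell by 1.41 ± 0.17 in the type II knockout (adjusted p = 7.5e-05) and differed by -0.41 ± 0.17 in Type I keratin KO skin (adjusted p = 0.0874). The adaptor Traf6 rose by 1.07 ± 0.19 in Type I keratin KO skin (adjusted p = 0.00203) and differed by -0.19 ± 0.19 in the type II knockout (adjusted p = 0.469). All 3 of its probes rose in the type I knockout, but they disagreed in the type II knockout, where 1 of them rose by 1.07 (adjusted p = 0.0136) and the others differed by -0.14 and -0.19 without passing. The other called genes, named after their values were seen, were the kinase Map3k7 and its adaptor Tab2 and the NF-kappaB subunit Rela. In the type I knockout Map3k7 rose by 0.50 ± 0.16 (adjusted p = 0.0379) and Tab2 fell by 0.69 ± 0.19 (adjusted p = 0.0164), and in the type II knockout Rela rose by 0.77 ± 0.11 (adjusted p = 0.000275). The call of Tab2 was lost without Type I keratin KO replicate 2 (0.0543), and that of Map3k7 without Wild type I replicate 1 (0.134) or 2 (0.0803), Type I keratin KO replicate 1 (0.106) or 3 (0.110) or Wild type II replicate 3 (0.0539).

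Lhx2, a LIM-homeodomain factor of the placode and later of the follicle stem cells, had 5.95, 6.19 and 5.96 in Type I keratin KO, against 7.32, 6.91 and 6.96 in Wild type I, and 5.67, 5.81 and 5.55 in Type II keratin KO, against 7.19, 7.34 and 7.47 in Wild type II. All 6 knockout arrays lay below all 6 wild-type arrays. Lhx2 fell by 1.03 ± 0.14 (adjusted p = 0.000395), a 2.04-fold difference, and by 1.66 ± 0.14 (adjusted p = 9.26e-06), a 3.15-fold difference. Among all 11163 genes its fall ranked 208th in the type I and 162nd in the type II knockout, beside 235th and 90th for Shh and 111th and 154th for Edar.

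Sox9, the factor of the early follicle stem cells and outer root sheath, had 7.09, 7.25 and 6.82 in Type I keratin KO, against 7.88, 7.28 and 7.08 in Wild type I. In the type II series it had 8.02, 7.26 and 7.77 in Type II keratin KO, against 7.48, 7.69 and 7.52 in Wild type II. The groups overlapped in both series. The differences of -0.36 ± 0.23 (adjusted p = 0.262) and 0.12 ± 0.23 (adjusted p = 0.724) did not pass, with 95% intervals of -0.86 to 0.14 and -0.38 to 0.61. In the type II series the difference was -0.06 after median scaling of the arrays.

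Wnt10b, an early Wnt ligand of the placode, was dim. It had 5.20, 5.38 and 5.01 in Type I keratin KO, against 5.71, 5.39 and 5.55 in Wild type I, and 5.45, 5.20 and 4.94 in Type II keratin KO, against 6.15, 6.23 and 6.20 in Wild type II. Of the 3 arrays 2 detected it in each knockout, while all wild-type arrays did. The groups did not overlap in either series, though the type I groups nearly met, at 5.38 and 5.39. Wnt10b fell by 1.00 ± 0.15 in the type II knockout (adjusted p = 0.000467), whereas the difference of -0.35 ± 0.15 in the type I knockout did not pass (adjusted p = 0.106, 95% interval -0.68 to -0.02).

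Lef1, the nuclear partner of beta-catenin in the placode and hair matrix, had 4.63, 5.03 and 4.66 in Type I keratin KO, against 5.44, 5.41 and 4.92 in Wild type I. It had 5.22, 4.87 and 4.92 in Type II keratin KO, against 5.75, 5.74 and 5.73 in Wild type II. Only 1 of 3 arrays detected it in each knockout, against 2 of 3 in Wild type I and 3 of 3 in Wild type II, and the type I groups overlapped. Lef1 fell by 0.74 ± 0.17 in the type II knockout (adjusted p = 0.00483) and by 0.48 ± 0.17 in the type I knockout, where it passed narrowly (adjusted p = 0.0489).

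The type I call of Lef1 was lost under 13 of 24 alternatives, among them the omission of Wild type I replicate 1 (adjusted p = 0.146) or 2 (0.151), Type I keratin KO replicate 1 (0.155) or 3 (0.134), Wild type II replicate 1 (0.0670), 2 (0.0662) or 3 (0.0667) and Type II keratin KO replicate 3 (0.0510). The sizes for the dim probes also depended on the background correction. Without it Lef1 differed by -0.14 in the type I and -0.21 in the type II knockout, Wnt10b by -0.33 in the type II knockout and Ptch1 by -0.12 in the type I knockout. Edar then fell by 0.57 and 0.78 and Lhx2 by 0.48 and 0.76, all still called. The type I calls of Lef1 and Ptch1 were lost without the correction (adjusted p = 0.106 and 0.101). With a background offset of 50 they were lost as well (adjusted p = 0.0883 and 0.0602).

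Of 22 further Wnt ligands and receptors tested, 3 rose and 6 fell in the type I knockout, and 3 rose and 9 fell in the type II knockout, with medians of -0.02 and -0.32. The receptor Fzd6 rose by 1.02 ± 0.17 (adjusted p = 0.00143) and 1.20 ± 0.17 (adjusted p = 0.000307), and Porcn, which attaches the lipid that Wnt ligands need for release, rose by 0.92 ± 0.24 (adjusted p = 0.0133) and 2.00 ± 0.24 (adjusted p = 7.52e-05). The other Porcn probe differed by 0.58 in the type I knockout without passing (adjusted p = 0.0637) and rose by 1.57 in the type II knockout (adjusted p = 0.000199). Wnt4 rose by 0.85 ± 0.20 and 0.73 ± 0.20 (adjusted p = 0.00827 and 0.0115), the type II call of Wnt4 being lost with median scaling (adjusted p = 0.0980). The receptor Fzd2 fell by 0.92 ± 0.22 and 1.04 ± 0.22 (adjusted p = 0.00986 and 0.00334). Rspo3, a secreted amplifier of Wnt signals, fell by 0.72 ± 0.19 and 1.16 ± 0.19 (adjusted p = 0.0176 and 0.000794), with the type I call lost without Wild type I replicate 1 (0.0660) or 2 (0.0584) or Type I keratin KO replicate 1 (0.0610) or 3 (0.0570).

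Among Wnt transducers, targets and inhibitors the falls were more numerous, at 7 of 21 in the type I knockout with 1 rise, and 14 of 21 in the type II knockout with 1 rise. Their medians were -0.42 and -0.64. Notum, a secreted enzyme that inactivates Wnt ligands, fell by 1.24 ± 0.18 (adjusted p = 0.000446) and 1.65 ± 0.18 (adjusted p = 4.03e-05). Nkd2, an inhibitor inside the cell, fell by 0.86 ± 0.15 and 1.10 ± 0.15 (adjusted p = 0.00203 and 0.000258), and the factor Tcf7l1 by 0.73 ± 0.15 and 0.64 ± 0.15 (adjusted p = 0.00375 and 0.00476).

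Sp6, a zinc-finger factor that mice need for normal hair and teeth, was the single rise in the type I knockout at 0.65 ± 0.16 (adjusted p = 0.0122) but fell by 1.33 ± 0.16 in the type II knockout (adjusted p = 0.000104). Its other probe differed by 0.16 in Type I keratin KO skin (adjusted p = 0.434), and the type I call of Sp6 was lost without Wild type I replicate 2 (adjusted p = 0.0527). The single rise in the type II knockout, named after its value was seen, was the kinase Gsk3b at 1.42 ± 0.30 (adjusted p = 0.00302).

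Bmp4 was bright on every array. It had 9.15, 9.03 and 8.93 in Type I keratin KO, against 9.89, 9.67 and 9.30 in Wild type I, and 9.12, 8.95 and 9.29 in Type II keratin KO, against 9.57, 9.91 and 9.45 in Wild type II. The groups did not overlap in either series, although the gap was narrow in both. Bmp4 fell by 0.59 ± 0.17 (adjusted p = 0.0261), a 1.50-fold difference, and by 0.52 ± 0.17 (adjusted p = 0.0317), a 1.44-fold difference. The type I call was lost without Wild type I replicate 1 (0.0929) or 2 (0.0742) or Type I keratin KO replicate 2 (0.0683) or 3 (0.0796), and the type II call without Wild type II replicate 1 (0.0577) or 2 (0.134) or Type II keratin KO replicate 1 (0.0667) or 2 (0.0976), all adjusted p.

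Msx2, a homeobox factor downstream of BMP signals in the hair matrix, was near the detection limit in most groups. It had 5.17, 5.16 and 4.68 in Type I keratin KO, against 5.29, 4.89 and 4.61 in Wild type I, and 5.00, 5.33 and 4.86 in Type II keratin KO, against 5.93, 6.53 and 5.17 in Wild type II. Wild type II was spread most widely, and the groups overlapped in both series. The differences of 0.07 ± 0.30 (adjusted p = 0.882) and -0.81 ± 0.30 (adjusted p = 0.0503) did not pass. The type II difference passed under 5 of 23 alternatives, among them the omission of Wild type II replicate 3 (adjusted p = 0.00669).

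The wider BMP list had 1 rise and 5 falls among 23 genes in the type I knockout, and 3 rises and 8 falls in the type II knockout, with medians of -0.11 and -0.33. Over all genes 27.8% and 37.5% were called, with medians of -0.11 and -0.08. The type I median of the list was thus near that of all genes. The ligand Bmp3 fell by 0.96 ± 0.16 (adjusted p = 0.0014) and 0.65 ± 0.16 (adjusted p = 0.00845). The transducer Smad5 fell by 0.56 ± 0.11 and 0.64 ± 0.11 (adjusted p = 0.00348 and 0.000854), but 1 of its 3 probes differed by -0.08 and 0.17 without passing. Fstl1, a secreted BMP antagonist, fell by 0.67 ± 0.15 and 1.00 ± 0.15 (adjusted p = 0.0075 and 0.000433).

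The ligand Bmp7 rose by 0.96 ± 0.21 (adjusted p = 0.00627) and by 0.62 ± 0.21 (adjusted p = 0.0352), and the type II call of Bmp7 was lost without any 1 of the 3 Wild type II arrays (0.0756, 0.110 and 0.0591) or without Type II keratin KO replicate 1 (0.0759) or 2 (0.128). The receptor Acvr1 rose by 0.66 ± 0.11 in the type II knockout (adjusted p = 0.000848). The next genes were named after their values were seen. The BMP antagonist Chrd fell by 0.63 ± 0.18 and 0.71 ± 0.18, Ctdspl, a phosphatase, fell by 0.52 ± 0.13 and 0.59 ± 0.13, and the receptor Bmpr2 rose by 0.96 ± 0.23 in the type II knockout. The other Bmpr2 probe rose in both knockouts, by 0.50 in the type I (adjusted p = 0.0235) and 0.91 in the type II (adjusted p = 0.000558). The type I call of Chrd was lost without Wild type I replicate 2 (adjusted p = 0.0573) or 3 (0.0600) or Type I keratin KO replicate 2 (0.0532) or 3 (0.0823).

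**Figure D3:**
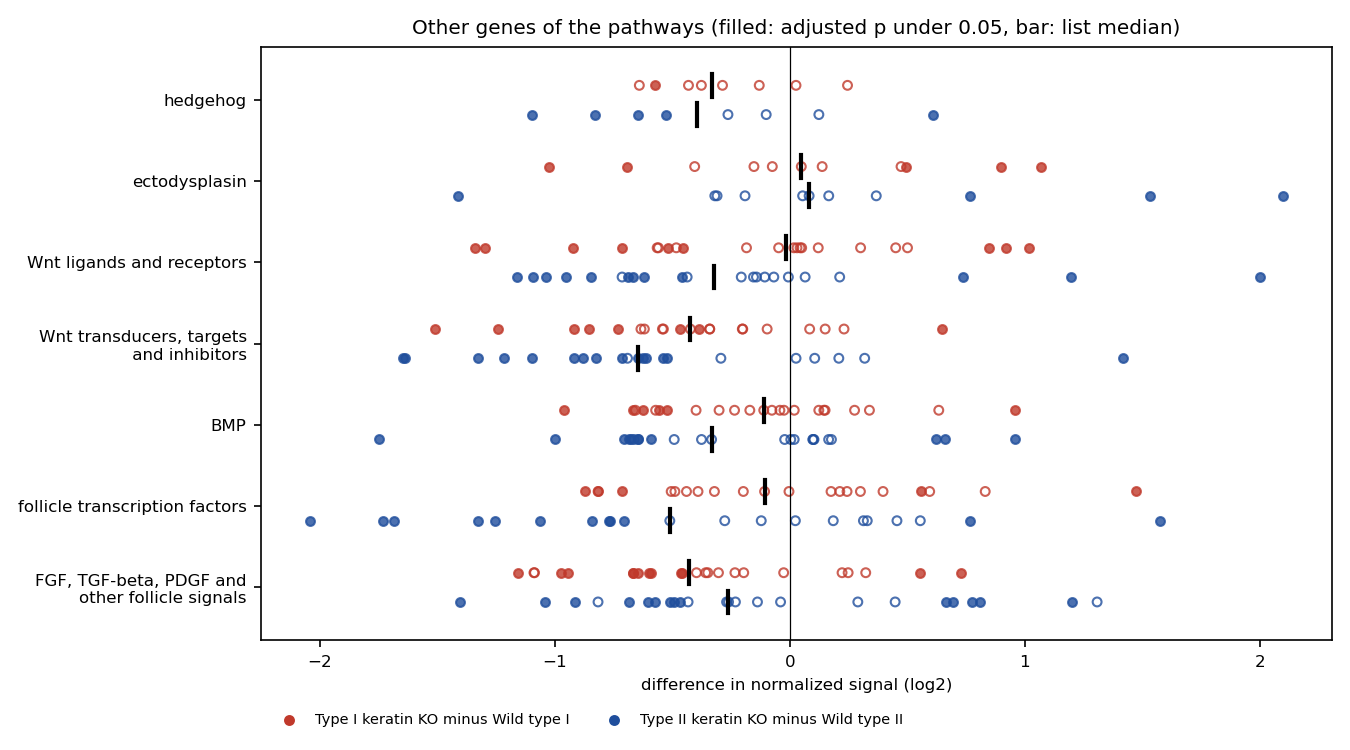
Differences of log2 signal of the other genes of each pathway list, with 1 point per gene, the type I knockout (red) above the type II knockout (blue) in each list; filled points have an adjusted p under 0.05 and bars are list medians. The list of Wnt transducers, targets and inhibitors has medians of -0.42 and -0.64, and the ectodysplasin list is spread to both sides of 0.

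Of 21 further transcription factors of the follicle, 2 rose and 3 fell in the type I knockout, and 2 rose and 10 fell in the type II knockout, with medians of -0.11 and -0.51. The all-gene medians were -0.11 and -0.08, with 27.8% and 37.5% of all genes called, so the type I median was near that of all genes. Tfap2a, an epidermal factor, rose by 1.47 ± 0.16 (adjusted p = 6.19e-05) and 1.58 ± 0.16 (adjusted p = 3.01e-05). Hes5, a Notch target, was not detected on any knockout array and fell at least 1.41-fold and at least 1.78-fold (adjusted p = 0.00648 and 0.000119). Its probe entered the test only through wild-type arrays, so the adjusted p is no separate support for a fall. Hes5 averaged 4.79 in Type I keratin KO and 5.50 in Wild type I, and 4.57 in Type II keratin KO and 5.82 in Wild type II. The other Hes5 probe differed by -0.35 in the type I knockout without passing (adjusted p = 0.0796) and fell by 0.86 in the type II knockout (adjusted p = 0.000568).

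Dlx3, a factor of the hair matrix and of the differentiating epidermis, fell by 2.04 ± 0.24 in the type II knockout (adjusted p = 6.9e-05) and differed by -0.32 ± 0.24 in Type I keratin KO skin (adjusted p = 0.336). Trps1 fell by 0.82 ± 0.20 and 0.70 ± 0.20 (adjusted p = 0.0111 and 0.0165), with the type II call lost without Wild type II replicate 1 (0.0596) or 2 (0.0605) or Type II keratin KO replicate 3 (0.0560). Runx1, named after its value was seen, rose by 0.77 ± 0.20 in the type II knockout (adjusted p = 0.00936).

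Fibroblast growth factor, TGF-beta, PDGF and other signalling genes of the follicle made up a list of 24 tested, of which 2 rose and 10 fell in the type I knockout, and 5 rose and 9 fell in the type II knockout. Its medians were -0.43 and -0.27. Ccnd1, a cyclin and Wnt target, fell by 1.16 ± 0.23 (adjusted p = 0.00367) and 1.40 ± 0.23 (adjusted p = 0.000685). Another Ccnd1 probe also fell in both knockouts (adjusted p = 0.00186 and 0.000461). A further probe differed by -0.87 and -0.95 without passing (adjusted p = 0.412 and 0.336). Igfbp5 fell by 0.94 ± 0.17 and 0.92 ± 0.17 (adjusted p = 0.00218 and 0.00157), and Pdgfa, which epithelium sends to the dermal condensate, fell by 0.67 ± 0.17 and 1.04 ± 0.17 (adjusted p = 0.0123 and 0.000623).

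In the other direction, Egfr rose by 0.55 ± 0.13 and 0.81 ± 0.13 (adjusted p = 0.00883 and 0.000597), and Igf1r rose by 1.20 ± 0.18 in the type II knockout (adjusted p = 0.000325). The EGF receptor ligand Tgfa, not detected on any wild-type array, rose at least 1.30-fold and at least 1.26-fold (adjusted p = 0.00501 and 0.00409). It entered the test only through knockout arrays, so its adjusted p is no separate support for a rise. Tgfa and the other rises in the type II knockout, Jag1 at 0.77 ± 0.17 and Igfbp3 at 0.66 ± 0.16, were named after their values were seen. Igf1 fell by 0.98 ± 0.19 in Type I keratin KO skin (adjusted p = 0.00365) and by 0.58 ± 0.19 in the type II knockout (adjusted p = 0.0342). The type II call of Igf1 was lost without any 1 of the 3 Wild type II arrays (0.0652, 0.123 and 0.0525) or without Type II keratin KO replicate 1 (0.108) or 3 (0.103). Without both 2602 arrays the type I calls of Fzd2, Porcn, Fstl1, Ctdspl, Trps1, Egfr and Pdgfa were lost as well, with adjusted p of 0.0575, 0.106, 0.0591, 0.0843, 0.0714, 0.0727 and 0.0526. So were those of Disp1 (0.120), Sp6 (0.107), Chrd (0.154), Map3k7 (0.0527) and Tab2 (0.0609).

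**Figure D4:**
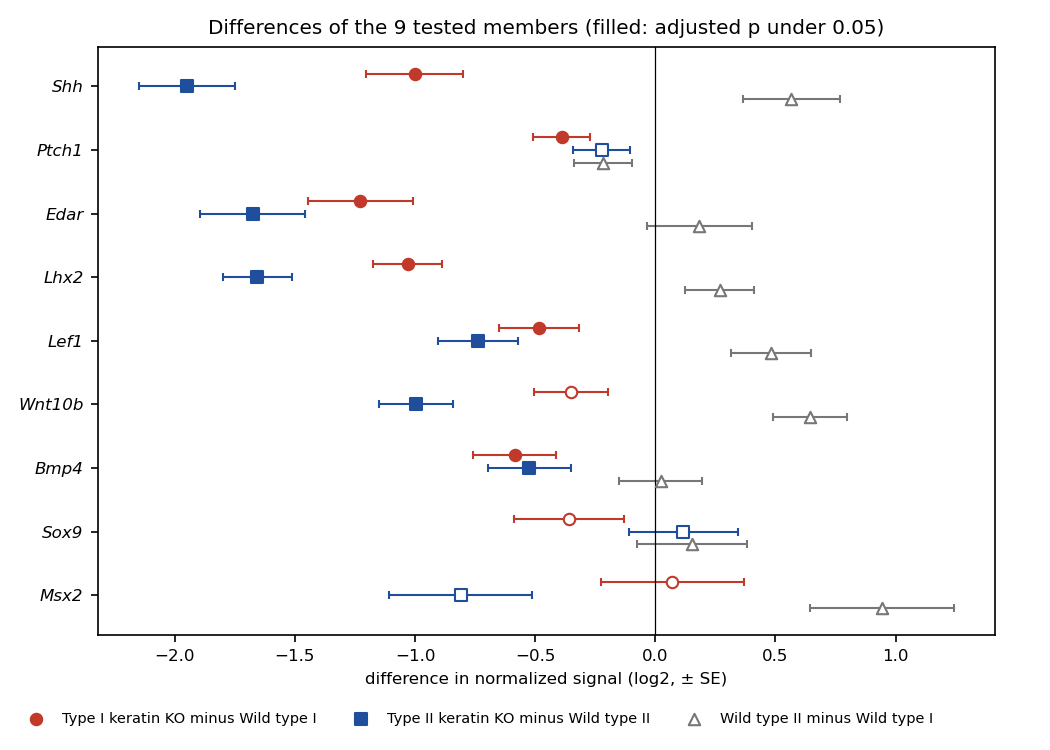
Differences of log2 signal (± SE) of the 9 tested genes for each knockout against its own wild type and for Wild type II against Wild type I; filled symbols have an adjusted p under 0.05. Shh, Edar and Lhx2 lie furthest to the left, and no triangle, the wild-type comparison, is filled.

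The differences were further below 0 in the type II than in the type I knockout for Shh, Edar, Lhx2, Lef1 and Wnt10b, of which Wnt10b had not passed in the type I knockout, and the difference of the changes was tested for each. None of the 9 was called by limma, where 3.06% of all genes were, 1.22% higher and 1.85% lower, and 3 had an unadjusted p under 0.05. Those were Shh with -0.95 ± 0.28 (adjusted p = 0.110, 95% interval -1.57 to -0.33), Lhx2 with -0.63 ± 0.20 (adjusted p = 0.140, -1.07 to -0.18) and Wnt10b with -0.64 ± 0.22 (adjusted p = 0.150, -1.12 to -0.17). Edar differed by -0.45 ± 0.31 (-1.12 to 0.23) and Msx2 by -0.88 ± 0.42 (-1.80 to 0.04). The difference for Shh was called in 1 setting, without Wild type I replicate 1, at -1.20 with an adjusted p of 0.0193. Wnt10b averaged 5.20 in each knockout, beside 5.55 in Wild type I and 6.19 in Wild type II. Lef1 averaged 4.77 in Type I keratin KO and 5.00 in Type II keratin KO, beside 5.26 in Wild type I and 5.74 in Wild type II.

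The wild types of the series were also set against each other. None of the 9 genes was called by limma, where 1.53% of all genes were, 0.6% higher and 0.932% lower, and 4 had an unadjusted p under 0.05: Shh, Lef1, Wnt10b and Msx2, all with the higher mean in Wild type II. Wnt10b differed by 0.64 ± 0.15 (adjusted p = 0.0613, 95% interval 0.31 to 0.98), Msx2 by 0.94 ± 0.30 (adjusted p = 0.140, 0.29 to 1.59), Shh by 0.57 ± 0.20 (adjusted p = 0.178, 0.13 to 1.01) and Lef1 by 0.48 ± 0.17 (adjusted p = 0.170, 0.12 to 0.85). For Wnt10b and Lef1 all 3 Wild type II arrays lay above all 3 Wild type I arrays, as for 14.9% of all genes, and no member had all 3 below, as for 13.1%.

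The remaining genes differed less between the wild types. Lhx2 differed by 0.27 ± 0.14 (95% interval -0.05 to 0.58), Edar by 0.18 ± 0.22 (-0.29 to 0.66), Sox9 by 0.15 ± 0.23 (-0.34 to 0.65), Bmp4 by 0.02 ± 0.17 (-0.35 to 0.40) and Ptch1 by -0.22 ± 0.12 (-0.48 to 0.04). Single arrays moved these calls. Wnt10b passed without Type II keratin KO replicate 1 (adjusted p = 0.0424) or 3 (0.0378), Shh without Wild type I replicate 1 (0.0400) and Msx2 without Wild type II replicate 3 (0.0470). The test of the difference between the knockouts shares these wild-type arrays, so a wild-type difference enters it with the opposite sign.

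The genes whose signals ran closest to those of each called member were found by the root mean square difference of centred log2 signals over the 12 arrays. Closest to Shh were Tshr (0.180) and Sox21 (0.187), where Shh itself varied by 0.806 about its mean. Closest to Lhx2 were Ntn3 (0.192) and Notum (0.197), and closest to Edar were Ctnnbip1 (0.296) and Galnt9 (0.297). For the members that varied less the nearest genes were Cdc45 at 0.118 from Lef1, Tmem268 at 0.162 from Wnt10b, Hoxd8 at 0.0988 from Bmp4 and Zc3h10 at 0.0939 from Ptch1. The points share libraries and groups, and the likeness is a description.

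Sox21, Tshr and Ctnnbip1 were picked because their signals ran like those of Shh or Edar, which fell in both knockouts. Their own falls follow from that choice and add no separate support. Sox21, a factor of the hair shaft, fell by 0.96 ± 0.23 in Type I keratin KO skin (adjusted p = 0.0105) and fell by 1.76 ± 0.23 in the type II knockout (adjusted p = 0.000186). Its other probes differed by -0.36 and -0.49 in the type I knockout without passing (adjusted p = 0.225 and 0.0971). In the type II knockout they fell by 0.82 and 1.44 (adjusted p = 0.00884 and 0.000278). Ctnnbip1, which blocks beta-catenin from binding TCF factors, fell by 0.92 ± 0.13 and 1.14 ± 0.13 (adjusted p = 0.000336 and 4.91e-05). Tshr was not detected on any knockout array and fell at least 1.91-fold and at least 2.62-fold (adjusted p = 0.00421 and 0.000146). It entered the test only through wild-type arrays.

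Some markers of the cells in and around the follicle moved in the same samples. Of 7 tested markers of the dermal papilla and condensate 3 fell and none rose in each knockout. The list medians were -0.72 in the type I and 0.02 in the type II knockout, beside -0.11 and -0.08 over all genes. In the type II knockout the 4 uncalled markers, Crabp1, Vcan, Sox2 and Prdm1, differed by 0.39, 0.17, 0.04 and 0.02. The summed linear signal was 1006 to 1251 in Type I keratin KO and 1896 to 2405 in Wild type I. It was 899 to 1094 in Type II keratin KO and 1963 to 2411 in Wild type II. Sox18 and Corin were the brightest of the 7 in both wild types, so the sums mostly follow them. Corin fell by 1.40 ± 0.34 and 1.83 ± 0.34 (adjusted p = 0.0107 and 0.00154), Alpl by 0.72 ± 0.19 and 1.00 ± 0.19, and Sox18 fell by 0.85 ± 0.24 and fell by 1.49 ± 0.24. Their type I calls were lost with single arrays left out: Alpl without Wild type I replicate 3 or Type I keratin KO replicate 2 (0.0509 and 0.0580), and Sox18 without Wild type I replicate 1 or 2 or Type I keratin KO replicate 3 (0.0740, 0.0619 and 0.0773). Without both 2602 arrays the type I calls of Corin and Alpl were lost, with adjusted p of 0.0522 and 0.0541.

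Of 7 tested markers of the follicle epithelium 1 rose and 3 fell in the type I knockout, and 3 fell in the type II knockout. The list medians were -0.20 and -0.12, beside -0.11 and -0.08 over all genes. The summed signal of the 7 was 1169 to 1490 in Type I keratin KO and 1193 to 1682 in Wild type I, which overlap. It was 1197 to 1345 in Type II keratin KO and 1579 to 2254 in Wild type II, which do not. Gata3, the brightest of the 7 in every group, differed by 0.30 and -0.12 and was not called (adjusted p = 0.307 and 0.684). Hoxc13, a factor of the hair shaft, fell by 0.87 ± 0.26 and 1.69 ± 0.26 (adjusted p = 0.0279 and 0.000499), and Shisa2 by 0.83 ± 0.25 and 1.61 ± 0.25 (adjusted p = 0.0279 and 0.00047). The other Shisa2 probe differed by -0.63 in the type I knockout without passing (adjusted p = 0.0947) and fell by 1.23 in the type II knockout (adjusted p = 0.00341). The type I call of Hoxc13 was lost without Wild type I replicate 1 (0.100) or Type I keratin KO replicate 1 (0.0671) or 3 (0.0901). That of Shisa2 was lost without Wild type I replicate 1 (0.0636) or 3 (0.0822) or any 1 of the 3 Type I keratin KO arrays (0.0798, 0.0646 and 0.0623). Both were lost without both 2602 arrays, with adjusted p of 0.0915 for Hoxc13 and 0.142 for Shisa2. The shaft markers Tchh and Padi3 did not enter the test.

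Other tissues of the skin moved as well. All 5 tested adipocyte markers fell in each knockout, with sums of 6042 to 6551 in Type I keratin KO and 9693 to 14796 in Wild type I, and 4876 to 10684 in Type II keratin KO and 10909 to 14192 in Wild type II. The type I call was lost under 10 of 25 alternatives for Adipoq and 6 of 25 for Lpl. The type II call was lost under 1 of 24 for Adipoq and 10 of 24 for Lpl, while Lep kept both calls. Skeletal muscle markers fell at 3 of 6 and 6 of 6, dermal fibroblast markers at 6 of 8 and 4 of 8, and melanocyte markers at 0 of 4 and 3 of 4, with no rise in any of these lists. The summed fibroblast signal was 31334 to 37788 in Type I keratin KO and 46680 to 51292 in Wild type I, and 28915 to 35848 in Type II keratin KO and 44531 to 46014 in Wild type II. Endothelial markers had 0 of 4 called in each knockout. Markers of the epidermis differed by layer. Basal markers had 3 rises among 6 in the type II and 0 calls among 6 in the type I knockout. In the type II knockout Itgb4 rose by 1.60 ± 0.17 (adjusted p = 3.95e-05). The other Itgb4 probe rose in both knockouts, by 0.79 in the type I (adjusted p = 0.0257) and 2.26 in the type II (adjusted p = 2.76e-05). Summed basal signal was 7710 to 9668 in Type I keratin KO and 6978 to 9225 in Wild type I, and 13104 to 16652 in Type II keratin KO and 8806 to 9053 in Wild type II. Suprabasal markers had 3 rises among 5 in the type I knockout, and 1 rise and 2 falls in the type II knockout. Their summed signal was 40282 to 48500 in Type I keratin KO and 30779 to 32864 in Wild type I, and 4850 to 12170 in Type II keratin KO and 27071 to 34822 in Wild type II. The part of these other cells in the members' differences was not tested.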

How the data were processed

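Whole back skin RNA was hybridised to 12 single-colour Illumina bead arrays, 3 in each group given by the titles. The authors deposited a non-normalized table of intensity and detection p-value per probe, per the file headers. The deposited p-values served only to call detection and to estimate background. Log2 values were computed here from the deposited intensities with limma 3.58.1 in R 4.3.3: normexp background correction with the detection p-values and an offset of 16, quantile normalization, then log2. Probes detected at p under 0.05 on at least 3 arrays entered, which kept 14744 of 25697 probes. The brightest probe stood for each gene, which left 11163 features, of which 883 were probes without a symbol. One linear model of the 4 groups was fitted with lmFit and eBayes, p-values were adjusted with the Benjamini-Hochberg method over all features, and intervals are at 95% and unadjusted. The number of arrays limits the precision, and the median standard error of a difference was 0.17. The steps were tested on simulated data. Where no array of a group detected a gene, its change is given as a lower bound: the bright group's mean against the higher of the dim signal and the lowest detected signal on each dim array.

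The genes named besides the members were, for each pathway list and knockout, up to 3 called genes with the smallest p, any measured hedgehog ligand, receptor or target, up to 2 called genes of each cell list, and the 2 nearest genes of each called member. Not every gene so selected is described. Genes named after their values were seen are marked. The members and lists were chosen with earlier results of these data known. Alternatives were other background, scaling, filter, probe and model choices and the omission of each array. The authors' processed values were used only as an alternative. They are on a linear scale, with near-equal medians of 16.3 to 16.4 and 25.2 to 25.3% of them negative. They entered as log2 after a floor at 0 and the addition of 16.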

Additional observations from a re-analysis of the deposited data

Results flagged for a closer look

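Over all genes tested 342 differed between the knockouts in their change. Among the genes selected for naming, none of them a member, there were 10 for which the change in the type II knockout differed from that in the type I knockout, by the test of the difference itself in the limma model with adjustment over all genes. In the ectodysplasin list the difference was 1.19 for Eda2r (adjusted p = 0.00539), 1.20 for Nfkbia (0.0317), 0.72 for Rela (0.0271), -1.01 for Tnfrsf19 (0.0384) and -1.26 for Traf6 (0.0276), whose probes disagreed in the type II knockout. Sp6 had the smallest p, with a difference of -1.98 (adjusted p = 0.000996). Dlx3 differed by -1.72 (0.0173) and Igfbp3 by 0.97 (0.0445). Among epidermal markers, Lor, the cornified envelope protein loricrin, differed by -4.63 (adjusted p = 0.0201), with -4.84 in the type II and -0.21 in the type I knockout, and the hemidesmosome subunit Itgb4 by 1.29 (0.0153). Groups of 3 arrays are too small for a test of single outlying arrays.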

How the results depend on the processing

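Each result was recomputed under 25 alternatives, 12 of which left out 1 array. Shh, Edar and Lhx2 kept their calls in both knockouts under every alternative that gave a value. The type I call was lost under 9 of 25 alternatives for Ptch1 and 13 of 24 for Lef1, not all of them listed above. The losses of Bmp4 are given with their values above. The fit of each knockout with its own wild type only gives no value for the difference between knockouts. With 1 array left out, called members numbered 3 to 6 in the type I knockout, 5 to 7 in the type II knockout, 0 to 1 for the difference between knockouts and 0 to 1 between the wild types. All called genes then numbered 2108 to 3622, 3188 to 4443, 170 to 673 and 39 to 251. Without both 2602 arrays, a setting chosen after seeing the data, 1783 genes were called in the type I knockout, beside 3105, and 193 for the difference between knockouts and 49 between the wild types, beside 342 and 171. Array weights gave 825 genes for the difference and 779 between the wild types, where 1 member, Wnt10b, was then called. The title-number block gave 3665 genes in the type I and 4716 in the type II knockout, 539 for the difference and 97 between the wild types, and no filter on dim probes gave 109 between the wild types. The cause of these shifts was not tested.

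The replicate block called 6 members in the type I and 7 in the type II knockout, adding Msx2 (adjusted p = 0.00915), and 3171 and 4309 genes, 324 for the difference and 181 between the wild types. Same-numbered arrays correlated at 0.168, 0.0587 and 0.359 in the type I series and at 0.0820, 0.0281 and 0.141 in the type II series, so the replicate number is not taken as a pairing, and not every array correlated best with its own number. The title numbers showed more structure in the type I series, where knockout and wild-type arrays of the same title number correlated at 0.0587 to 0.359 and those of different title numbers at -0.282 to -0.173. The consensus correlation within title numbers was 0.206.

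The differences that changed sign had not been called. With 1 array left out, the type I difference ran from -0.0882 to 0.251 for Msx2, -0.0680 to 0.116 for Boc, -0.162 to 0.467 for Gsk3b, -0.0945 to 0.106 for Bmpr2 and -0.210 to 0.185 for Runx1. The type II difference ran from -0.0536 to 0.330 for Sox9, -0.247 to 0.831 for Ivl and -0.0027 to 0.194 for Boc. The difference between knockouts ran from -0.0740 to 0.222 for Bmp4, and that between the wild types from -0.138 to 0.158 for Bmp4 and -0.0135 to 0.386 for Sox9. Median scaling gave -0.0190 for Bmpr2 in the type I knockout, -0.0632 for Sox9 in the type II knockout and -0.0537 for Bmp4 in the difference between knockouts. Array weights gave -0.0976 for Bmpr2 in the type I knockout and -0.0803 for Bmp4 between the wild types, and the mean of a gene's probes gave 0.245 for Traf6 in the type II knockout. Without both 2602 arrays the values were -0.0656 for Bmpr2 in the type I knockout, and -0.138 for Bmp4 and -0.0135 for Sox9 between the wild types. Dim probes set the limit: sizes for Lef1, Wnt10b and Ptch1 depend on the background correction, and Gli1 was not measurable.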
